A study of Mus musculus with 63 samples.

Results

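PD153035 blocks the tyrosine kinase of the epidermal growth factor receptor (EGFR), and its effect on mRNA levels was measured in mouse keratinocytes that carry the v-rasHa oncogene and an intact *Egfr* gene (WT ras). The 10 arrays were picked by their titles from 63 arrays in the series: 5 of WT ras cells given PD153035 at 1 µM for 2 h, and 5 of WT ras cells given no inhibitor. Both groups were keratinocytes from the skin of newborn CD-1 mice, were transduced with v-rasHa from diluted supernatant of Psi-2 producer cells and stayed in culture for 4 days. The labels name no vehicle for the cultures without inhibitor, and no promoter or clone for the viral oncogene. Other groups used below are *Egfr* knockout (KO) ras cells with PD153035 and without inhibitor, WT mock cells (no v-rasHa) with PD153035 and without inhibitor, and WT ras cells with AG1478 or erlotinib at the same dose and time. Each group had 5 arrays, and 2 WT mock arrays with the same repeat number were averaged to leave 4 samples. In every array 1 dye carried the sample and the other a universal mouse reference RNA pooled from cell lines, so a level here is the log2 ratio of sample over that pool, with the log base assumed. A level of 0 means equal to the pool.

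EGFR is a receptor for growth factors such as EGF, TGF-alpha and amphiregulin. Ligand binding switches on its kinase, which signals through RAS, RAF and MEK to the kinase ERK, and ERK within minutes turns on immediate early genes such as *Egr1* and *Fos* and, more slowly, feedback inhibitors such as the DUSP phosphatases and Sprouty proteins. An oncogenic RAS acts below the receptor. In keratinocytes RAS is also known to raise EGFR ligands, which act back on the receptor of the same cells, and a receptor inhibitor asks how much of the ras cell's expression runs through that loop.

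The arrays were alike in coverage. Those of WT ras cells with PD153035 held 27705 to 28013 probe values and those of WT ras cells 26107 to 27977, with 1 reversed dye order in each group. Arrays correlated at 0.631 to 0.867 within WT ras with PD153035, 0.561 to 0.809 within WT ras and 0.542 to 0.806 between the groups. The SD of the log ratios on an array ran from 1.03 to 1.41 with PD153035 and from 1.15 to 1.71 without. Of 18 genes typical of the reference pool, 13 had positive and 5 negative differences, with a median of 0.33. The part of this spread in the results was not tested. The label keratinocyte was borne out by its markers: 18 keratinocyte genes averaged 1.91 to 3.97 above the pool in WT ras with PD153035 and 2.67 to 3.82 in WT ras. Between the groups 5 of these 18 had positive and 13 negative differences, with a median of −0.50. Means of 18 fibroblast, 10 endothelial and 15 leukocyte markers lay below the pool on all 10 arrays. For fibroblast markers the mean ran from −1.51 to −1.04 with PD153035 and from −2.75 to −0.77 without. Of the 18 genes, 12 had positive and 6 negative differences, with a median of 0.61. *Col3a1*, the lowest, averaged −5.55 with PD153035 and −5.27 without, and *Vim* 0.44 with PD153035 and −0.69 without. The mean of melanocyte markers (9 genes) lay above the pool in both groups, at 0.77 to 1.66 with PD153035 and 0.70 to 2.13 without. Of the 9 genes, 5 had positive and 4 negative differences. *Tyrp1* averaged 5.46 with PD153035 and 3.42 without, whereas *Mlana* averaged 0.45 with PD153035 and 2.45 without. No member of these marker lists was called between the groups, against 0.746 percent of all genes, and the part of such cells in the results was not tested. In cultures of mixed cells, fewer cells of a type and less RNA per cell cannot be told apart.

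One feature of the design touches every value below. Experiment numbers in the labels fall into 8 runs, whose meaning is not given. All WT ras arrays with PD153035 lie in run 8 and all WT ras arrays without inhibitor in runs 1 and 2, so the inhibitor and the run cannot be told apart. Of the comparisons used here, PD153035 in WT mock cells (runs 1 and 2 for both groups) and WT against KO ras cells that both received PD153035 (run 8 for both) are free of this overlap.

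With PD153035, more genes rose than fell in WT ras cells, and the immediate early genes *Egr1*, *Fos* and *Btg2* were among those that fell. Of 27893 probes, 184 passed an adjusted p of 0.05 in limma (0.66 percent), 129 higher and 55 lower. Taken as 1 probe per gene, 108 of 14477 genes were called (0.746 percent), 82 higher (0.566 percent) and 26 lower (0.18 percent). Called probes differed by 0.97 to 3.85 on the log2 scale, with a median of 1.69, and 118 of the 184 had no overlap between the 5 and 5 arrays, against 2.43 percent of all probes. An interval for a single probe reached a median of 0.75 to either side, before adjustment, and no change smaller than 0.97 was called. The count is fragile. With run as a random block 1 probe was called, that of *Egr1*, and with only the 10 arrays in the fit 14 probes were called. Leaving out 1 array gave 55 without WT ras replicate 5, 70 without WT ras replicate 4, 358 without WT ras replicate 1, and 70, 91, 81 and 299 without replicates 1, 2, 4 and 5 of WT ras with PD153035.

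*Egr1*, an immediate early zinc finger transcription factor on chromosome 18, showed the largest signal relative to its error. Its log2 ratios were −0.054, −0.11, −0.51, −0.46 and 0.34 in WT ras with PD153035, against 2.20, 2.81, 2.10, 3.30 and 2.75 in WT ras. The groups lay about 1.8 apart at their nearest points. *Egr1* fell by 2.79 ± 0.29 (SE; 6.9-fold; adjusted p = 8.32e-09 in limma), and it was called in all 24 alternative settings, with adjusted p from 9.02e-10 to 0.0138 and 0.000227 with run as a random block.

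*Fos*, which pairs with JUN proteins to form the AP-1 factor, had −0.25, 0.54, 0.064, −0.87 and −0.28 in WT ras with PD153035, against 2.77, 1.66, 2.03, 3.50 and 2.02 in WT ras. No array of the inhibited cells reached the lowest array of WT ras. *Fos* fell by 2.56 ± 0.62 (5.88-fold; adjusted p = 0.0321), and of the 24 settings 15 called it; the adjusted p with run as a random block was 0.909. *Btg2*, an antiproliferative immediate early gene that is also a p53 target, had −1.29, −1.04, −1.22, −1.39 and −1.07 in WT ras with PD153035, against 1.76, 0.44, 0.32, 2.06 and 0.51 in WT ras. Inhibited cultures were tightly grouped below the pool, while WT ras cultures split into replicates 1 and 4 near 2 and the others near 0.4. The fall was 2.22 ± 0.36 (4.66-fold; adjusted p = 0.000613; 0.116 with run as a random block).

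No other immediate early gene was called, in a list chosen with earlier results of these data known. Of 25 measured members, 0 rose and 3 fell (*Egr1*, *Fos* and *Btg2*), against 0.18 percent of all genes lower; 17 had a negative difference and the median was −0.38, beside 6908 of 14477 genes negative and a median of 0.029 for all genes. Differences in *Myc* (−1.08 ± 0.71, adjusted p = 0.574), *Fosl1*, an AP-1 subunit (−1.06 ± 0.73, 0.596), and *Ier3* (−0.42 ± 0.39, 0.72) did not pass. A second *Ier3* probe gave −1.31 ± 0.50 (0.232). Among AP-1 partners chosen after their values were seen, *Jun* differed by −0.38 ± 0.43 and *Junb* by −0.044 ± 0.46. *Klf6*, again chosen after its values were seen, lay below WT ras on all inhibited arrays, at −0.89 ± 0.28 (0.134).

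**Figure D1:**
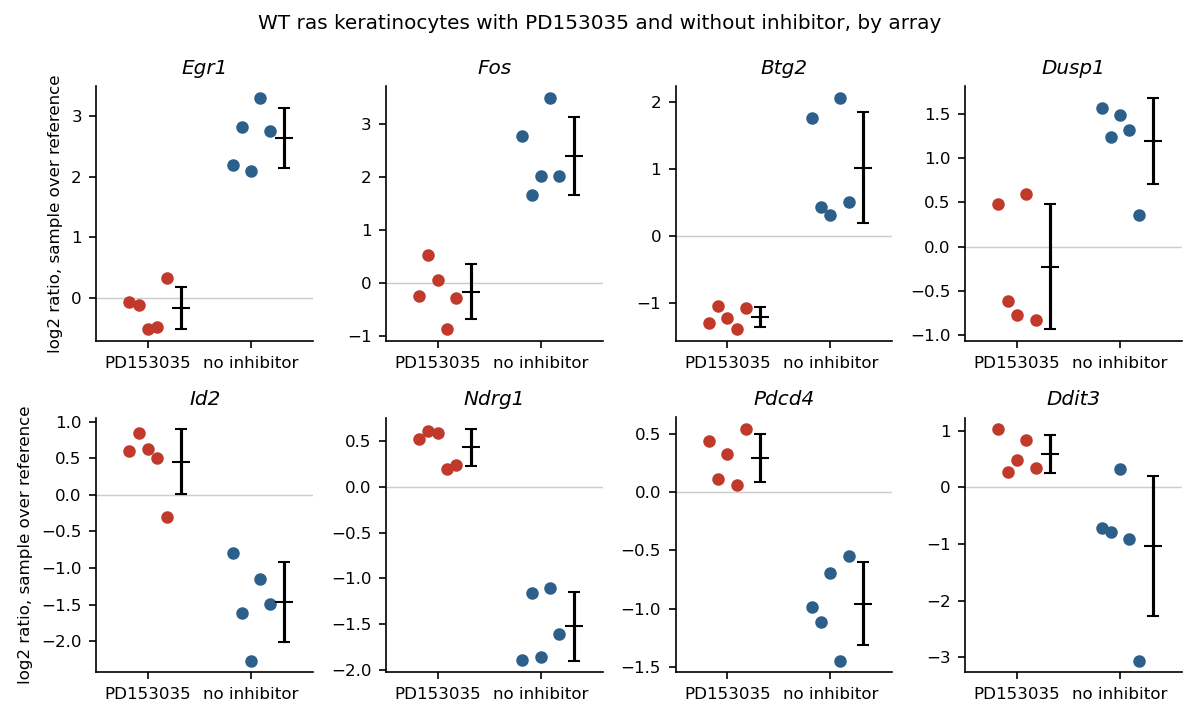
Log2 ratio of sample over reference pool on each array of WT ras cells with PD153035 (red, left) and without inhibitor (blue, right) for 8 genes; black marks are the mean and SD of 5 arrays. *Egr1*, *Fos* and *Btg2* lie lower and *Id2*, *Ndrg1* and *Pdcd4* higher in all 5 inhibited cultures, whereas *Dusp1* and *Ddit3* overlap.

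No feedback inhibitor of ERK passed the test. Of 15 measured phosphatases, Sprouty, SPRED and related genes, 0 were called, against 0.746 percent of all genes. A count of 0 in a list of this size is near that share. In this list 12 had negative differences and the median was −0.31. *Dusp1*, the phosphatase most often grouped with immediate early genes, had 0.49, −0.61, −0.78, 0.59 and −0.83 in WT ras with PD153035 and 1.57, 1.24, 1.49, 1.32 and 0.35 in WT ras. Replicate 5 of WT ras fell inside the range of the inhibited cells, and the difference of −1.42 ± 0.45 was not called (adjusted p = 0.127). *Dusp6*, a direct ERK phosphatase, differed by −0.31 ± 0.35 (0.791), *Spry2* by −0.42 ± 0.27 (0.556), *Phlda1* by −0.50 ± 0.45 (0.716) and *Errfi1*, which binds and blocks EGFR itself, by 0.38 ± 0.28 (0.632). A second *Errfi1* probe gave −0.083 ± 0.28. For *Dusp4* the 3 probes gave 0.48 ± 0.41, 1.69 ± 0.46 and 0.66 ± 0.35, and none was called.

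The receptor and its ligands were not called either. *Egfr* was read by 2 probes; the better measured one averaged 1.92 ± 0.41 (SD, n = 5) in WT ras with PD153035 and 1.90 ± 0.92 in WT ras, a difference of 0.013 ± 0.40 with a 95% interval from −0.79 to 0.82. The second differed by 0.26 ± 0.48. Of 7 EGF family ligands 0 were called, against 0.746 percent of all genes, and the median was 0.75. *Tgfa* differed by −0.63 ± 0.51, *Hbegf*, the heparin-binding ligand, by −0.26 ± 0.55, and *Ereg*, epiregulin, by 1.46 ± 1.15, with intervals too wide to exclude a change of 1 on the log2 scale. A second *Ereg* probe gave 0.47 ± 0.72. Of 8 ErbB receptors and adaptors 0 were called, with differences from −0.51 to 0.50.

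**Figure D2:**
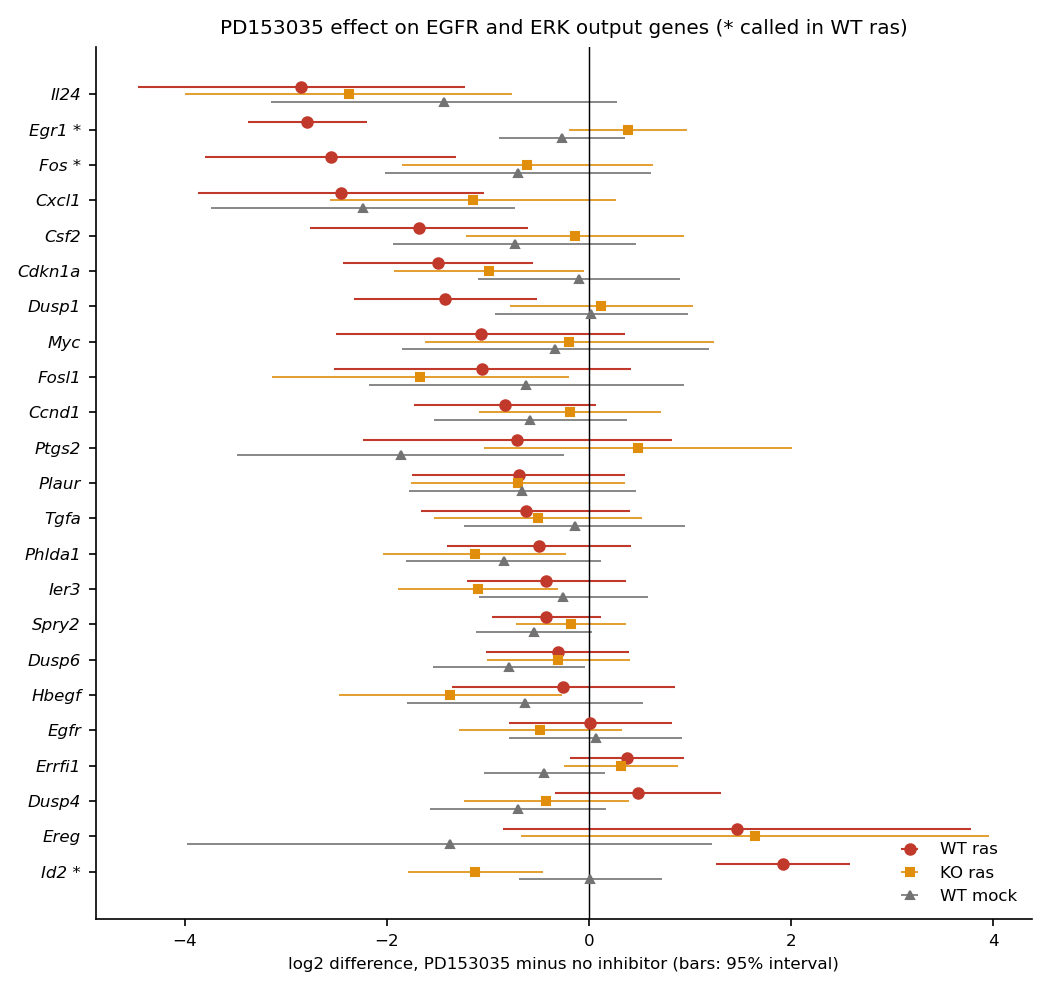
Log2 difference with 95% interval for PD153035 minus no inhibitor in WT ras (red circles), KO ras (orange squares) and WT mock cells (grey triangles), for 23 genes of EGFR and ERK output. In WT ras 3 of the 23 were called, *Egr1*, *Fos* and *Id2*, and only in WT ras did the interval of *Egr1* lie wholly below 0.

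The list of growth restraint and FOXO-linked genes held 2 calls, both higher. Of 20 measured members 2 rose (0.566 percent of all genes did) and 0 fell, 14 were positive and the median was 0.25. *Id2*, a helix-loop-helix protein without a DNA-binding domain that holds back partner transcription factors, had 0.60, 0.85, 0.63, 0.50 and −0.31 in WT ras with PD153035, against −0.80, −1.62, −2.27, −1.15 and −1.49 in WT ras. Even inhibited replicate 5, the lowest of its group, lay above every WT ras array. *Id2* rose by 1.92 ± 0.33 (3.78-fold; adjusted p = 0.00114; 0.334 with run as a random block). Its relatives *Id1*, *Id3* and *Id4*, named here after their values were seen, differed by −0.23 ± 0.35, −0.17 ± 0.34 and 0.21 ± 0.42. *Pdcd4*, a translation inhibitor and tumour suppressor, had 0.44, 0.11, 0.33, 0.06 and 0.54 with PD153035, against −0.98, −1.12, −0.69, −1.45 and −0.55 in WT ras, and rose by 1.25 ± 0.22 (2.39-fold; adjusted p = 0.00118). A second *Pdcd4* probe gave −0.41 ± 0.43 (0.764), and the mean of both probes, 0.42, was not called. *Cdkn1a*, the cell cycle inhibitor p21, stood at −1.50 ± 0.47 (0.123) and so differed in sign from the list's name, as its second probe did at −0.11 ± 0.46.

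*Ndrg1*, a gene of growth arrest, differentiation and low oxygen, rose with both of its probes. The values were 0.53, 0.61, 0.59, 0.20 and 0.24 in WT ras with PD153035, against −1.90, −1.16, −1.86, −1.11 and −1.61 in WT ras. The groups were each narrow and more than 1.3 apart. The probes gave 1.96 ± 0.36 (3.89-fold; adjusted p = 0.00199; 0.334 with run as a random block) and 1.95 ± 0.34 (0.00119). Of 20 measured hypoxia and glycolysis genes *Ndrg1* was the only call, against 0.746 percent of all genes, while 13 were negative and the median was −0.15. *Ddit3*, the stress transcription factor CHOP, had 1.03, 0.26, 0.49, 0.83 and 0.33 with PD153035, against −0.72, −0.79, 0.32, −0.92 and −3.06 in WT ras. It rose by 1.62 ± 0.36 (adjusted p = 0.0159) although WT ras replicate 3 lay within the inhibited range. *Ddit3* was the only call among 19 genes of ATF4 and amino acid stress, against the same 0.746 percent, and their median was −0.077.

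Promoters of *Fos*, *Btg2* and *Id2*, called genes of the response with a window in the RefSeq table (build GRCm38.p6, 250 bases before to 50 bases after the start site), are shown to set the genes that fell beside one that rose. Capitals mark the motifs that were found. *Fos* (chr12:85473640-85473939, plus strand) holds a TATA box, TATAAA, at −33 to −28 with the start site counted as 0, and *Btg2* (chr1:134079106-134079405, minus strand) a cAMP response element, TGACGTCA, at −166 to −159. None of the searched motifs lies in the window of *Id2* (chr12:25096043-25096342, minus strand).
Fos: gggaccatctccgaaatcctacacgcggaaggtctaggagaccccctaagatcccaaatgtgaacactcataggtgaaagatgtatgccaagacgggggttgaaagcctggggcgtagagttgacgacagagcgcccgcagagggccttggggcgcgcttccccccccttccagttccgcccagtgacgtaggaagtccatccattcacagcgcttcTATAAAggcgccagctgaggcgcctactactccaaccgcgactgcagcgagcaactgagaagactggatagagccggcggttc
Btg2: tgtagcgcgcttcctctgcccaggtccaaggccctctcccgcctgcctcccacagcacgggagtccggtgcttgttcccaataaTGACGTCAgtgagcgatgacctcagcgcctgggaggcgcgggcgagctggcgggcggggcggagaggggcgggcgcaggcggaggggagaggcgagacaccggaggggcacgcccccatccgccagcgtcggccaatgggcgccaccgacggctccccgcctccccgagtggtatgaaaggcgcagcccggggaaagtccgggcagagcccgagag
Id2: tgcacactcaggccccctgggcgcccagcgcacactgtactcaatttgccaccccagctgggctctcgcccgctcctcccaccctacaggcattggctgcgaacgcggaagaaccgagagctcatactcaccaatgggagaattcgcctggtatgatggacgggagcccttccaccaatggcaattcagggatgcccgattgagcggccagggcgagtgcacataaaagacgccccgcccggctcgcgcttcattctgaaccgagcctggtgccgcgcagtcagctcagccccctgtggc
Both strands of 32851 promoter windows were searched for 7 motifs, which were counted apart where they overlapped. TGACGTCA occurred in 1.79 percent of windows, TATAAA in 13.6 percent, the AP-1 site (TGACTCA or TGAGTCA) in 5.2 percent, the EGR site (GCGGGGGCG or GCGTGGGCG) in 3.47 percent, the CArG box that serum response factor binds in 1.63 percent, the FOXO core GTAAACA in 3.65 percent and the E-box CACGTG in 7.15 percent. Of 23 called named genes with a window, TGACGTCA was found in 1 (*Btg2*), the AP-1 site in 2 (*Ddit3* and *Sprr2i*), the EGR site in 1, the FOXO core and the E-box in 2 each, TATAAA in 6 and the CArG box in 0. *Egr1* had no window among those searched, and bases further than 250 before a start site were not searched for any gene. The counts therefore do not cover sites that lie there. A match is a description of these letters and not of binding.

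The largest rises were in genes of varied function. *Plin1*, which coats lipid droplets, had −0.051, 1.66, −0.50, 0.025 and −1.48 in WT ras with PD153035, against −1.67, −3.05, −4.14, −5.05 and −4.49 in WT ras, a rise of 3.61 ± 0.58 (12.2-fold; adjusted p = 0.000613). *Aste1* had 1.98, 2.31, 1.62, 1.70 and 1.61, against −1.15, −0.46, −0.17, −1.21 and −1.74 in WT ras, a rise of 2.79 ± 0.55 (adjusted p = 0.00503). The lack of overlap with WT ras is required by the rule that picked the genes of largest change. *Exosc5*, a subunit of the RNA exosome, had 1.42, 1.26, 1.16, 0.92 and 0.84, against −0.44, −1.23, −0.47, −1.89 and −1.54 in WT ras, a rise of 2.24 ± 0.39 (adjusted p = 0.00118). The other 9 named rises ran from 2.20 to 3.25. They were the testis gene *Tex22* (3.25 ± 0.70), *Lrrc46* (3.20 ± 0.78), the dicarboxylate transporter *Slc13a3* (3.00 ± 0.71), the sperm flagellum tektin *Tekt5* (2.68 ± 0.62), *Mroh2b* (2.65 ± 0.48), the polysialic acid synthase *St8sia2* (2.65 ± 0.61), the hydrolase *Cmbl* (2.38 ± 0.48), the steroid dehydrogenase *Akr1c18* (2.24 ± 0.53) and the microfibril protein *Fbn2* (2.20 ± 0.48). For *Plin1*, *Tex22*, *Lrrc46* and *Slc13a3* the WT ras levels lay far below the pool, which includes a testis line, and the inhibited cells averaged −0.068, −0.13, −2.23 and −0.77, at or still below it. WT ras replicate 1 was the nearest to the inhibited arrays for *Tex22*, at −0.90 against −3.45 to −4.92 for the rest.

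The largest falls joined the immediate early genes with genes of other kinds. *Sprr2i*, a small proline-rich protein of the cornified envelope, had −0.34, −1.44, 0.001 and −0.52 on the 4 inhibited arrays with a value, against 3.26, 1.51, 2.26, 4.00 and 6.46 in WT ras. It fell by 3.82 ± 0.63 (14.1-fold, adjusted p = 0.00114), the only call among 29 envelope and suprabasal genes, against 0.746 percent of all genes. Its family has near-identical copies, so the probe may read several of them. *Has3*, a hyaluronan synthase, had −0.34, −0.37, −0.10, −0.14 and 0.17 with PD153035, against 0.57, 1.39, 1.99, 1.90 and 3.65 in WT ras, and fell by 2.05 ± 0.50 (adjusted p = 0.0325). *Ccl12*, a monocyte chemokine, fell by 3.59 ± 0.85 (0.028), *Ms4a2*, the IgE receptor chain of mast cells, by 3.85 ± 0.69 (0.00199) and *Cyp11b2*, aldosterone synthase, by 2.25 ± 0.46 (0.00858), the last pair with values on only 3 WT ras arrays. The remaining falls were the lysosomal *Plbd2* (−2.22 ± 0.54), the olfactory receptor *Olfr815* (−2.07 ± 0.40), the ribosomal *Rpl36a* (−1.67 ± 0.39) and the apoptosome gene *Apaf1* (−1.53 ± 0.38).

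**Figure D3:**
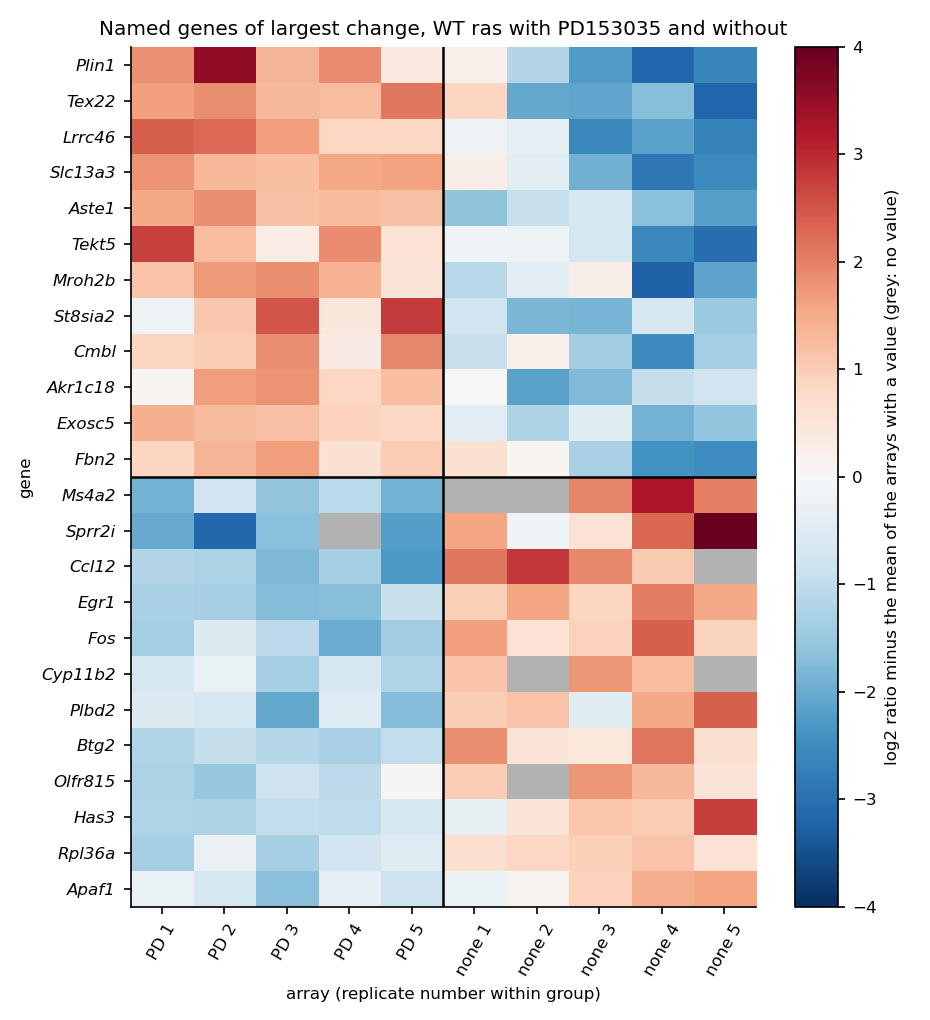
Log2 ratio of each named gene of largest change on the 5 arrays of WT ras with PD153035 (left) and the 5 without inhibitor (right), after subtraction of the gene's mean over arrays with a value; the upper 12 genes were higher and the lower 12 lower with PD153035. Red is above and blue below that mean, and grey squares are arrays without a value.

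No listed cytokine or chemokine passed the test, and *Ccl12*, called above, was not on that list. Of 24 members 0 were called, against 0.746 percent of all genes. Among them 15 were negative, 9 were positive and the median was −0.18. Differences ran up to 1.28 ± 1.11 for *Cxcl5* and 0.98 ± 0.48 for *Il1b* (adjusted p = 0.695 and 0.389), both chosen after their values were seen. *Cxcl1*, a neutrophil chemokine, had 1.76, 1.59, 4.14, 1.76 and 2.67 in WT ras with PD153035 and 4.08, 5.51, 5.28, 5.13 and 4.20 in WT ras. Inhibited replicate 3 lay inside the WT ras range, and the difference was −2.46 ± 0.71 (adjusted p = 0.0855). *Il24* had 0.075, 2.07, 4.66, 0.65 and 3.92 with PD153035 and 3.24, 4.16, 5.70, 5.88 and 6.65 without, a difference of −2.85 ± 0.81 (0.0779), with a second probe at −0.97 ± 0.80. Inhibited replicates 3 and 5 were the high ones for *Il24*, as they were for *Cdkn1a* (2.42 and 3.05, against 0.43 to 1.46 in replicates 1, 2 and 4). The same arrays were high in the mean of the 18 keratinocyte markers, at 3.93 and 3.97 in replicates 3 and 5, against 1.91, 2.92 and 2.33 in replicates 1, 2 and 4, and the part of this in the results was not tested. *Csf2*, the granulocyte-macrophage factor, differed by −1.68 ± 0.54 (0.132) and *Ptgs2*, cyclooxygenase, by −0.71 ± 0.76 (0.771).

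Cell cycle genes gave 1 call, where 0.746 percent of all genes were called in either direction. *Rfc3*, a loader of the replication clamp, fell by 0.97 ± 0.25 (adjusted p = 0.0446) among 24 replication genes, of which 18 were negative with a median of −0.45, and 8 of 24 settings called it. None of 22 mitosis genes was called (median −0.14, 16 negative), and *Ccnd1*, cyclin D1 and a slower ERK target, differed by −0.83 ± 0.45 (0.459), with its other 3 probes from −0.51 to 0.35. Of 17 ERK-dependent genes outside the immediate early set 0 were called, *Plaur* among them at −0.70 ± 0.53 (0.638).

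Keratinocyte programmes were not called beyond *Sprr2i*. Among 17 basal genes 0 were called, 11 were negative and the median was −0.57. Counts of 0 were also found for 16 stress keratins and alarmins, 14 desmosome genes (11 negative, median −0.43), 14 Notch pathway genes, 22 cholesterol and fatty acid genes, 19 NRF2 and glutathione genes, 14 xenobiotic response genes, 13 TGF-beta and YAP targets, 19 proteases and inhibitors and 17 interferon response genes. All 15 measured p53 targets were negative, with a median of −0.29 and *Btg2* as the only call. The 27 probes assigned to retroviral gag had 0 calls and a median of 0.11. Which retroviral sequences these probes read is not given, so they are no measure of the vector. Those lists of 0 calls in limma stand in a comparison where 3408 of 27893 probes had an unadjusted p under 0.05. Only 0.746 percent of all genes were called there, so 0 calls do not set a list of this size apart.

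**Figure D4:**
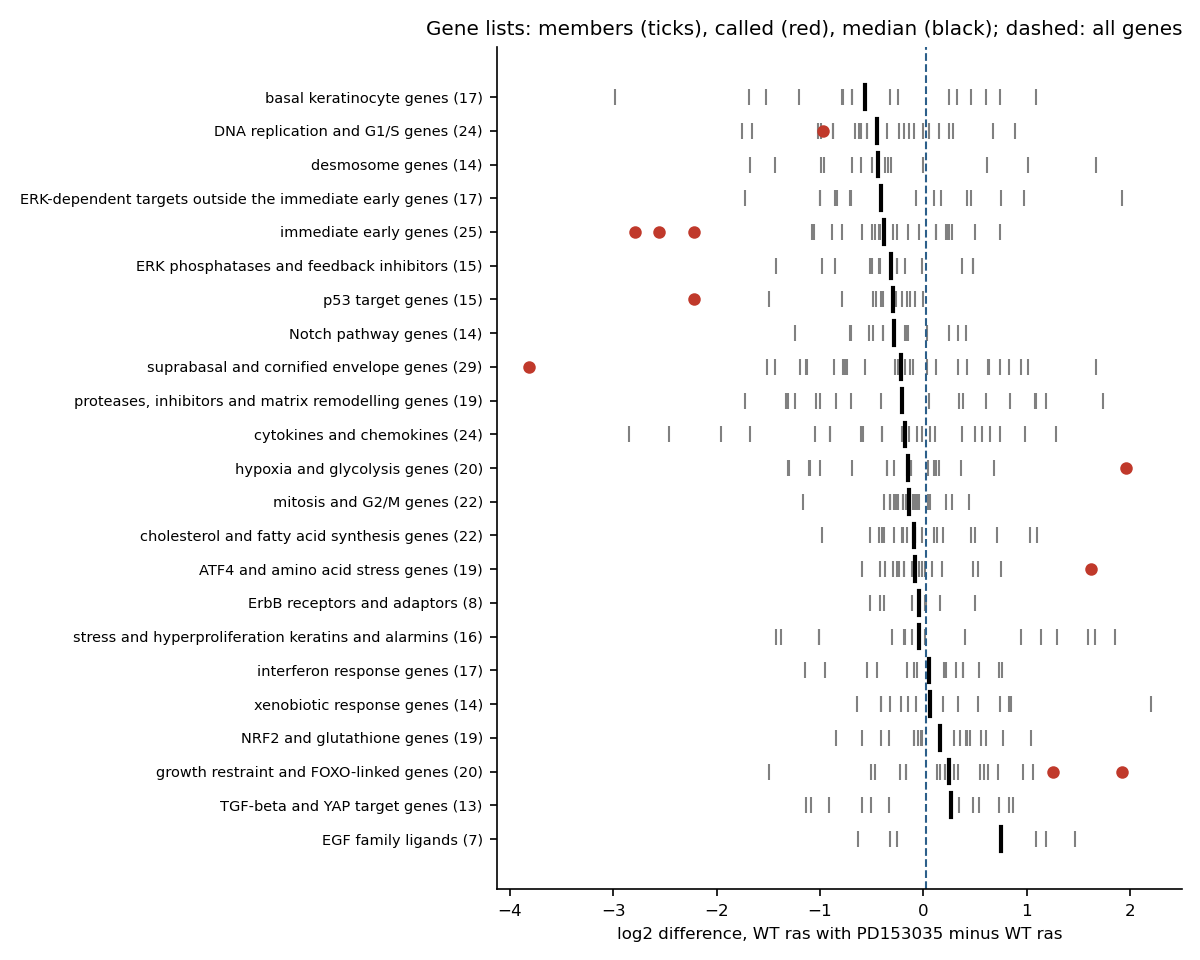
Log2 difference (WT ras with PD153035 minus WT ras) of every measured member of 23 gene lists, with the number measured in brackets; grey ticks are members not called, red points are called members, black bars are list medians and the dashed line is the median of all genes, 0.029. Red points appear in 7 of the lists, and most medians lie to the left of the dashed line.

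KO ras cells, which by their label lack the receptor, were given the same dose of PD153035 to show what the compound does without its target. With PD153035, WT minus KO differences of 8 ErbB receptors and adaptors, *Egfr* included, ran from −0.27 to 0.15. Of these 0 were called, against 1.44 percent of all genes, so the arrays did not show the loss as lower *Egfr* mRNA. Which part of that mRNA the probe reads is not given. *Egr1* ranged from −0.48 to −0.015 in KO ras with PD153035 and from −1.23 to −0.25 in KO ras without it, a difference of 0.39 ± 0.29 (adjusted p = 0.45). The difference between the effects, WT ras minus KO ras, was −3.17 ± 0.41 for *Egr1* (adjusted p = 8.08e-06; 0.000384 with run as a random block). *Id2* ranged from −1.64 to −0.69 in KO ras with PD153035 and from −1.67 to 0.68 in KO ras, and fell there by 1.13 ± 0.33 (0.0365). Its effects thus had opposite signs in WT ras and KO ras, 3.05 ± 0.47 apart (0.00037). *Ndrg1* stayed between −3.04 and −1.81 in KO ras with PD153035, against −2.96 to −1.04 in KO ras, and the effects differed by 2.35 ± 0.51 (0.04). For *Btg2* the effects differed by −2.36 ± 0.50 (0.0373), for *Pdcd4* by 1.61 ± 0.31 (0.0138), and for *Pla2g7*, a secreted phospholipase that degrades platelet-activating factor, by 2.57 ± 0.51 (0.0178). *Fos* had a negative difference in KO ras too, −0.61, which was not called, and its effects in WT ras and KO ras were not called as different.

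Across the array 26 of 27854 probes (0.0933 percent) had effects that differed between WT ras and KO ras, 16 more positive in WT (0.0574 percent) and 10 more negative (0.0359 percent). By gene these were 14 of 14460 (0.0968 percent), 9 more positive (0.0622 percent) and 5 more negative (0.0346 percent). Of the 20 samples left out in turn, 17 moved this count by over 1.5 times, between 8 without WT ras replicate 1 and 99 without KO ras replicate 4. With run as a random block 4 probes were called, and with only the groups compared 1. The balance also turned, to 30 more positive of 80 with forward arrays only and 779 of 1817 with array weights. In KO ras itself PD153035 gave 1351 calls of 27957 probes (4.83 percent), 723 of them higher (2.59 percent), with KO ras in runs 3, 5 and 6 and KO ras with PD153035 in run 8. Of the 108 genes called in WT ras, 96 had the same sign in KO ras, beside 8986 of 14460 genes tested. In KO ras 18 of the 108 were called in the same direction, beside 4.98 percent of all genes called in either direction there (2.47 percent higher and 2.52 percent lower), and 1, *Id2*, in the opposite direction. Those 18 include 7 of the 24 named genes of largest change. *Aste1* rose by 2.51 ± 0.55 in KO ras (adjusted p = 0.00606), *Exosc5* by 1.78 ± 0.39 (0.00674), *Slc13a3* by 2.25 ± 0.71 (0.0497) and *Tekt5* by 2.16 ± 0.62 (0.0321). *Ccl12* fell by 3.00 ± 0.80 (0.0216), *Olfr815* by 1.58 ± 0.37 (0.0108) and *Rpl36a* by 1.25 ± 0.39 (0.0484). Both inhibited groups lie in run 8, and the part of that run in these shared calls was not tested.

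WT and KO ras cells that both received PD153035 can be set against each other within run 8. Of 27934 probes 386 were called (1.38 percent), 238 higher in WT (0.852 percent) and 148 lower (0.53 percent). *Ndrg1* was 2.93 ± 0.36 higher in WT ras with PD153035 than in KO ras with PD153035 (adjusted p = 4.52e-07), *Pla2g7* 2.24 ± 0.36 higher (8.93e-05), *Id2* 1.59 ± 0.33 higher (0.00401), *Akr1c18* 1.92 ± 0.53 higher (0.0481) and *Pdcd4* 1.06 ± 0.22 higher (0.00395). *Btg2* was lower in WT ras with PD153035 (−1.38 ± 0.36, 0.0302). *Egr1* differed by 0.13 ± 0.29 (0.969). *Hbegf* was 2.10 ± 0.55 higher in WT (0.0342). For *Ndrg1*, *Pla2g7*, *Id2* and *Pdcd4* the WT arrays with PD153035 thus stood above the KO arrays of the same run as well as above WT ras without inhibitor.

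**Figure D5:**
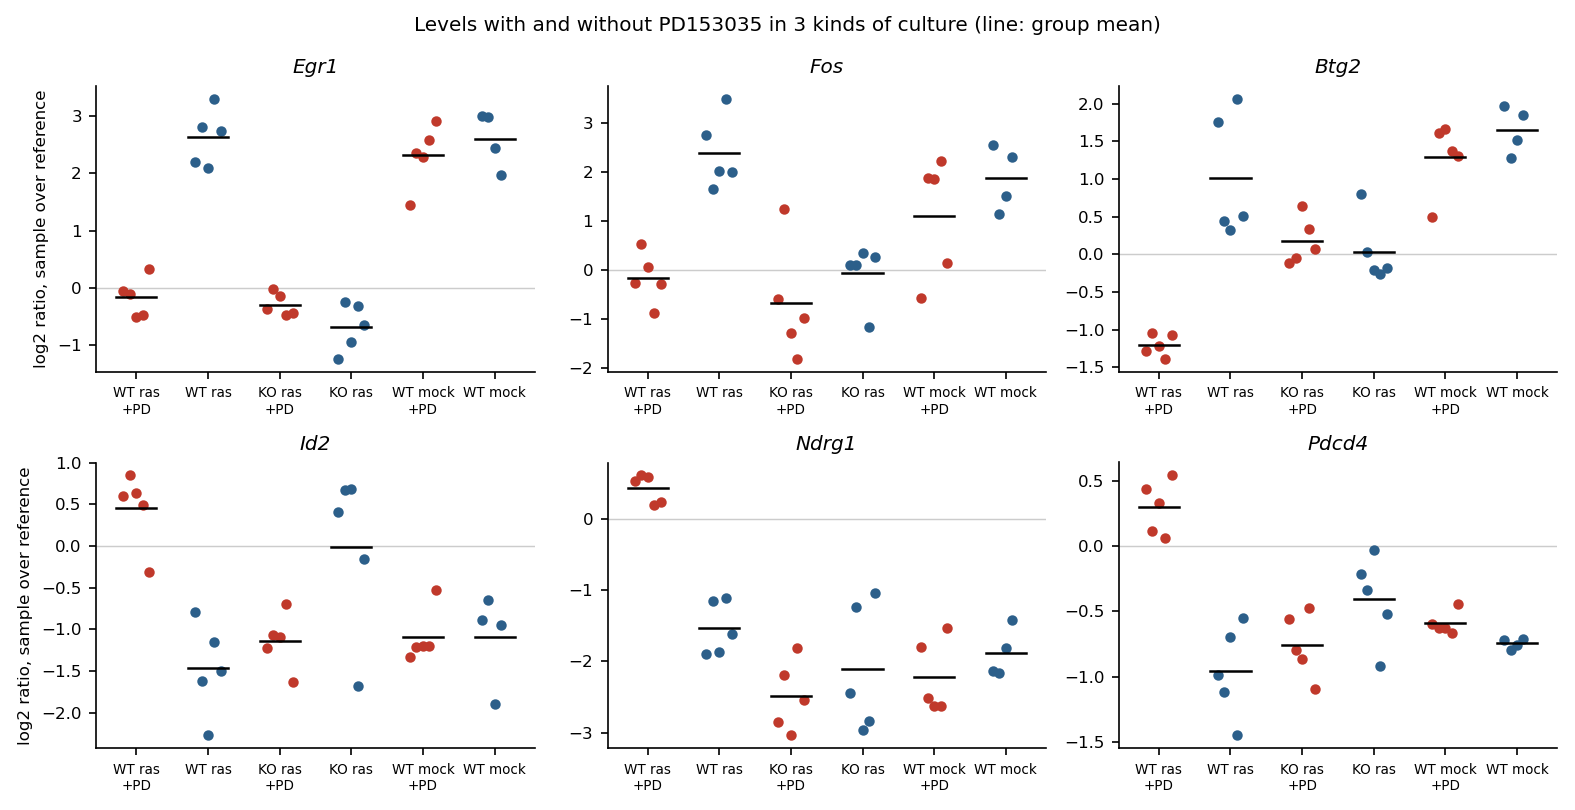
Log2 ratio on each array for 6 genes in WT ras, KO ras and WT mock cells, with PD153035 (red) to the left of no inhibitor (blue) in each pair; lines are group means. *Egr1* lies between −0.51 and 0.34 in WT ras with PD153035, between −1.23 and −0.015 in the KO ras groups and between 1.46 and 3.00 in the WT mock groups, and *Ndrg1* is above 0 only in WT ras with PD153035.

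WT mock cells received the same treatment without the oncogene. In these cells PD153035 gave 0 calls in limma among 27893 probes (0 percent), and 953 had an unadjusted p under 0.05. *Egr1* ranged from 1.46 to 2.92 in WT mock with PD153035 and from 1.98 to 3.00 in WT mock, a difference of −0.27 ± 0.31 with inhibited and uninhibited cultures interleaved. The effect in WT ras minus that in WT mock was −2.52 ± 0.42 (adjusted p = 0.00624), and this was 1 of 2 probes called for that difference (0.0072 percent of 27774), the other having no gene name, and the only one of 14433 genes (0.00693 percent, all lower). With run as a random block the adjusted p for *Egr1* was 0.458 and no probe was called. *Id2* (1.91 ± 0.48, adjusted p = 0.51), *Ndrg1* (2.27 ± 0.53, 0.304), *Btg2* (−1.85 ± 0.52, 0.545) and *Fos* (−1.85 ± 0.90, 0.997) did not pass for the same difference, whose median interval reached 1.09 to either side.

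AG1478 and erlotinib, the other EGFR kinase inhibitors, share a quinazoline core with PD153035. PD153035 differs from AG1478 in the halogen of the aniline ring, bromine in place of chlorine, and from erlotinib in that ring's substituent and in its shorter alkoxy side chains. At the same dose and time none of the response genes below passed the test of a direct difference, in 2 pairs of inhibitors compared with p adjusted over the probes of each. Each inhibitor was set against the same WT ras arrays for its own effect, with 538 of 27714 probes called for AG1478 (1.94 percent, 1.04 percent lower) and 948 of 27873 for erlotinib (3.4 percent). *Egr1* averaged −0.16 ± 0.34 in WT ras with PD153035, 0.014 ± 0.19 with AG1478 and −0.15 ± 0.51 with erlotinib (SD, n = 5 each). PD153035 minus AG1478 was −0.17 (95% interval −0.76 to 0.41) and PD153035 minus erlotinib −0.009 (−0.59 to 0.58). For *Id2* the same differences were −0.18 (−0.84 to 0.49) and −0.38 (−1.05 to 0.28), and for *Ndrg1* 0.30 (−0.42 to 1.02) and 0.005 (−0.72 to 0.73). *Fos* gave −1.06 (−2.30 to 0.18) and −0.70 (−1.94 to 0.54), and *Btg2* −0.76 (−1.47 to −0.046; adjusted p = 0.247) and −0.52 (−1.23 to 0.19). Differences of up to the ends of those intervals remain possible.

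PD153035 and AG1478 differed at 358 of 27758 probes (1.29 percent), 196 higher with PD153035 (0.706 percent) and 162 lower (0.584 percent). By gene the balance was the other way, 86 higher (0.595 percent) and 109 lower (0.754 percent), and with only the groups compared in the fit 0 probes were called. *Apoe*, a lipid carrier, had 0.45, −1.05, −2.21, −0.035 and −2.58 with PD153035 and averaged −3.75 ± 0.18 with AG1478, a difference of 2.66 ± 0.52 (adjusted p = 0.00667), and it also rose over WT ras, by 2.33 ± 0.52 (0.0166), with inhibited replicates 3 and 5 inside the WT ras range. The other genes that were most higher with PD153035 were *Alas2*, the heme synthase of red cells (3.04 ± 0.83, 0.0466), *Col4a3*, a basement membrane collagen (2.97 ± 0.69, 0.0214), *Hook1* (2.72 ± 0.59, 0.0162) and *Igkv4-70*, an immunoglobulin segment (2.67 ± 0.73, 0.0474). Against no inhibitor the *Hook1* probe used gave 1.97, and its other probes gave 0.85, 0.037 and −0.22. Those most lower were the protease *Klk6* (−3.96 ± 0.85, 0.0157), *Krt17*, a keratin of activated epidermis (−3.58 ± 0.94, 0.0398), *Dmkn* (−3.37 ± 0.90, 0.0414), *Mrtfa* (−3.31 ± 0.78, 0.023) and *Tcf21* (−3.23 ± 0.75, 0.0214). For *Klk6*, *Krt17*, *Dmkn* and *Mrtfa* the inhibited cultures split, with replicates 3 and 5 high; *Krt17* had 2.02, 2.06, 4.50, 2.22 and 4.38 with PD153035 and 5.36 to 7.41 with AG1478. Those are the replicates with keratinocyte marker means of 3.93 and 3.97, a list that includes *Krt17*. AG1478 arrays lie in runs 7 and 8, and with run as a fixed block 142 probes were called, 38 of them among the 358, and with run as a random block 33. Leaving out 1 array moved the count in 8 of 10 cases, between 16 without PD153035 replicate 1 and 1063 without AG1478 replicate 3.

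PD153035 and erlotinib differed at 49 of 27913 probes (0.176 percent), 8 higher with PD153035 (0.0287 percent) and 41 lower (0.147 percent), and they share no run. By gene 3 were higher (0.0207 percent) and 25 lower. *Emilin2*, an extracellular matrix glycoprotein, had −0.16, 0.25, 0.71, −0.11 and 2.32 with PD153035 and 3.61 to 6.66 with erlotinib, a difference of −4.15 ± 0.72 (adjusted p = 0.0013). *Morn3* (−4.09 ± 0.84, 0.0101), *Mrm1* (−3.93 ± 0.68, 0.00124), the scaffold *Iqgap1* (−2.99 ± 0.57, 0.00514) and *Erlin1*, a membrane protein of the endoplasmic reticulum (−2.68 ± 0.43, 0.000325), were also lower, while *Hnrnph1*, a splicing regulator (1.73 ± 0.34, 0.00582), *Olfr763* (1.62 ± 0.38, 0.0491) and *Acoxl* (1.50 ± 0.32, 0.02) were higher. Of these 8 genes none was called in PD153035 against no inhibitor. There the *Hnrnph1* probe used gave 0.53, and its other probes gave 0.015, −0.30 and −0.15. Scaling changed the balance of this comparison, to 50 higher of 145 calls after equal array spread and 50 higher of 116 after quantile normalization, and with run as a random block 1 probe was called. Leaving out 1 array gave 27 calls without erlotinib replicate 3, 32 without PD153035 replicate 3, 102 without erlotinib replicate 4 and 95 without erlotinib replicate 5.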

How the data were processed

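Labelled total RNA of each sample and of a universal mouse reference was hybridised together, per the labels' protocols. The authors deposited 1 log ratio of both dyes per probe and array, read here as log2. Base, background correction, spot filter and scaling are not given in the sources used here.

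Each ratio was given the sign of sample over pool, found by correlating its array with the median forward-labelled array. This matched the dye labels on all 10 arrays compared and not on 2 arrays of KO ras with AG1478. Of 28049 probes, 20925 matched 1 symbol (14541 genes), 159 several and 6965 none, with symbols from the platform annotation updated through RefSeq gene identifiers. limma 3.58.1 (R 4.3.3, statmod 1.5.0) was fitted to all 13 groups (62 samples) with dye order as a term and moderated variances, and p was adjusted by Benjamini-Hochberg over all probes of a comparison, at 0.05; every adjusted p in the text is from it. A probe needed values on 60 percent of the arrays in each group compared. Each symbol was read by the probe with most values. Runs are experiment numbers parted at gaps over 100; as a random block their consensus correlation was 0.242. Nothing in the labels says that arrays came from separate cultures beyond the design's mention of biological replicates, so p-values measure only the spread between these samples. The number of arrays limits the precision. The fit was tested on simulated data. Plots used matplotlib 3.10.9.

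Named genes are the 12 largest called changes in each direction whose arrays do not overlap, a panel of EGFR and ERK output genes, up to 5 called members of each list, and the 5 largest called changes in each direction of each other comparison, without clone and locus codes. These members, lists and rules were chosen with earlier results of these data known. Alternatives were no dye term, forward arrays only, median centring, equal array spread, quantile normalization, other filters on missing values, a fit on those groups alone, averages over a gene's probes, run blocks, a replicate block, array weights, omission of the arrays in dispute, signs by label, and each sample left out. Same-numbered arrays of the groups correlated in their deviations at 0.271, 0.051, −0.14, −0.114 and 0.313. Inhibited replicates 1 and 5 matched best with the same number in WT ras, and replicates 2, 3 and 4 with another. The numbers were therefore not taken to pair the arrays, and whether they do is not settled.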

Additional observations from a re-analysis of the deposited data

Results flagged for a closer look

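Effects of PD153035 differed between WT ras and KO ras, by limma's test of the difference, for 10 named genes. The differences were −3.17 for *Egr1* (adjusted p = 8.08e-06), −2.36 for *Btg2* (0.0373), 3.05 for *Id2* (0.00037), 2.35 for *Ndrg1* (0.04), 1.61 for *Pdcd4* (0.0138), 2.66 for *Defb1*, a beta-defensin (0.0158), 2.57 for *Pla2g7* (0.0178), 2.28 for *Tuba1a*, an alpha-tubulin (0.0443), −2.90 for *Was*, an actin regulator of blood cells (0.0445), and −1.89 for *Nop58*, a nucleolar protein (0.0373). *Defb1*, *Tuba1a*, *Was* and *Nop58* were not called in WT ras, where they differed by 0.77, 0.46, −0.95 and −0.65. In KO ras they were called, at −1.89, −1.82, 1.95 and 1.24. A second *Nop58* probe gave 0.45 in WT ras. Between WT ras and WT mock the effects on *Egr1* differed by −2.52 (0.00624).

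A single array stood apart from its group in 4 of 144 pairs of a named gene and a group. Its gap to the nearest array was over 0.71 of the group's range, which chance gives in about 1 of 20 groups. *Ereg* was 6.72 in replicate 2 of WT ras with PD153035, with the nearest array at 4.96. In WT ras, *Dusp1* was 0.35 in replicate 5, with the nearest at 1.24, *Dmkn* 1.33 in replicate 1, with the nearest at 4.34, and *Hnrnph1* −0.73 in replicate 3, with the nearest at 0.25.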

How the results depend on the processing

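The count of 184 probes for PD153035 in WT ras became 43 with forward arrays only, 288 with equal array spread, 14 with only the groups compared, 114 with probes averaged by gene, 1 with run as a random block, 352 with array weights and 49 with sign and dye term by label; leaving out 1 sample gave 55 to 358. The other 7 settings gave 160 to 261. The 26 for WT ras minus KO ras became 80 (forward), 61 (equal spread), 74 (quantile), 1 (groups compared), 16 (by gene), 4 (run), 1817 (weights), 16 (disputed arrays out) and 7 (label), and 8 to 99 with 1 sample out. The 2 for WT ras minus WT mock became 1 (no dye term), 0 (forward), 4 (equal spread, 2 of them higher), 1 (every value), 1 (groups compared), 1 (by gene), 0 (run), 1 (replicate block), 10 (weights) and 1 (label), and 1 to 2 with 1 out. The 358 for PD153035 minus AG1478 became 190 (no dye term), 1253 (equal spread), 1295 (quantile), 0 (groups compared; 191 by gene), 33 (run at random), 142 (run fixed), 2920 (weights) and 112 (label), and 16 to 1063 with 1 out. The 49 for PD153035 minus erlotinib became 100 (forward), 145 (equal spread), 116 (quantile), 19 (groups compared), 26 (by gene), 1 (run), 585 (weights) and 30 (label), and 27 to 102 with 1 out. The cause of these shifts was not tested. Some of the settings use fewer arrays or rows. A replicate block, whose numbers were not taken to pair the samples, gave 199, 21, 1, 341 and 49 calls in the same order of comparisons. Of the 31 named genes called in WT ras, 0 changed sign in the settings run; 1 of 31 stayed called with run as a random block, 6 of 31 with only the groups compared, 13 of 31 with signs by label and 10 of 29 with forward arrays only.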
